A study of Ovis aries with 6 samples.

Results

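The muscle atrophy ubiquitin ligases are 7 genes that were picked by symbol from the deposited count table, TRIM63, TRIM54, TRIM55, FBXO32, FBXO30, FBXO40 and FBXO21, out of 23144 genes listed there. The list carries no expression threshold, but it was drawn up with earlier STH vs. QHMM results of these data known, so the breed difference of its members is given as a description. The muscle was the longissimus dorsi of 6 female sheep aged 1 year, 3 Qianhua Mutton Merino (QHMM), a recent breed kept for mutton as well as wool, and 3 Small Tail Han (STH), a local breed. Both breeds were raised on one farm with free access to food, and the methods describe a fast before slaughter for the animals that were weighed. Each animal gave 1 poly(A) library, read on an Ion Proton sequencer, and breed is the only difference between the groups that the labels name.

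Ubiquitin ligases choose the proteins that are tagged with ubiquitin and then degraded by the proteasome. TRIM63, TRIM55 and TRIM54, also called MuRF1, MuRF2 and MuRF3, are RING finger proteins of striated muscle that sit on the sarcomere and on microtubules. F-box proteins, to which FBXO32 (atrogin-1), FBXO30 (MUSA1), FBXO40 and FBXO21 (SMART) belong, are the exchangeable part of SCF complexes, in which SKP1 and CUL1 join them to the catalytic subunit RBX1. In fasting, disuse and denervation, FoxO transcription factors and the glucocorticoid receptor are known to switch on TRIM63 and FBXO32.

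The libraries held 10982191 to 14334544 reads on genes, and all 7 genes passed edgeR's filter for low counts along with 12499 others. The thinnest value was the 93 reads of FBXO30 in QHMM replicate 2, with a share of 7.16 per 1000000 reads (95% Wilson interval 5.85 to 8.78), and the deepest was the 57076 reads of TRIM63 in STH replicate 2. That interval covers counting error alone, because PCR copies of one molecule are not separate observations. The tissue label was checked against muscle genes, and ACTA1, CKM, TTN, NEB and the slow myosin heavy chain OMYHCS were abundant in every library. In bulk tissue, fewer cells of a type and less RNA per cell cannot be told apart.

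TRIM63 and FBXO32, the pair most used as markers of muscle wasting, were higher in all 3 STH libraries than in any QHMM library, 11.5-fold and 6.40-fold by their means. TRIM54 and FBXO30 also stood higher in every STH library, FBXO40 stood lower, TRIM55 overlapped between the breeds, and FBXO21 had an STH mean at 0.926 of its QHMM mean. With edgeR's quasi-likelihood F test, adjusted over the 12506 tested genes, TRIM63 and FBXO32 passed an FDR below 0.05 with a fold change above 1.5, which makes 2 of 7 genes called up and 0 called down. Over all tested genes, 3.45% were called, 1.62% up and 1.83% down. An unadjusted p below 0.05 was found for 5 of the 7 genes and for 19.2% of all tested genes. The breeds did not overlap in 6 of the 7 genes, 4 with STH higher and 2 with STH lower. Of all tested genes, 24.7% did not overlap, 13% with STH higher and 11.7% with STH lower. The median log2 fold change of the 7 genes was 1.26, and that of all tested genes was 0.02. The list was assembled with these values known, so none of these counts is evidence about it.

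**Figure D1:**
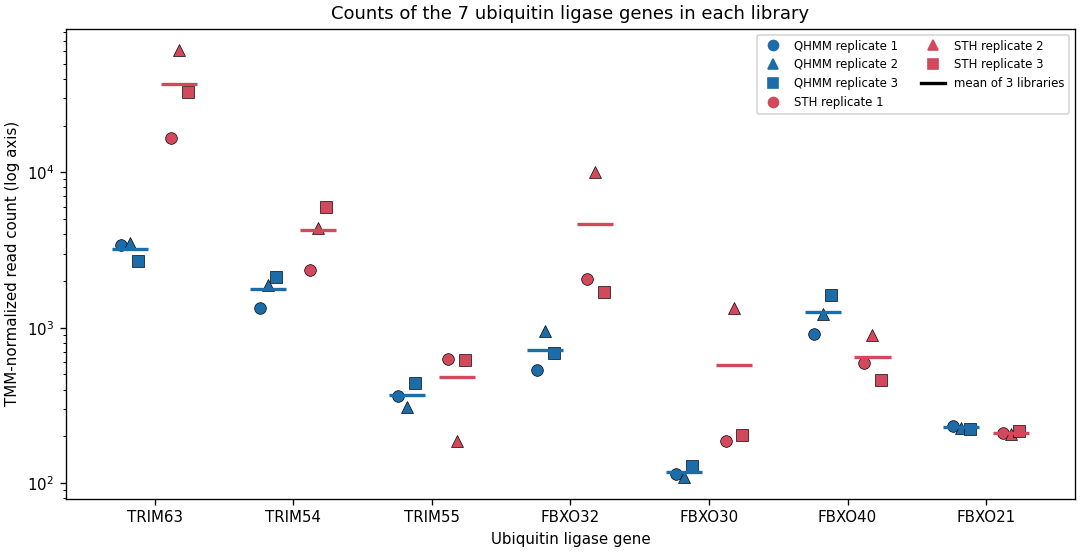
TMM-normalized read counts (log axis) of the 7 ligase genes on the horizontal axis, with 1 symbol per library, blue for QHMM and red for STH, and a bar at the mean of the 3 libraries of a breed. TRIM63 lies between 2696 and 3506 in QHMM and between 16746 and 60979 in STH, and STH replicate 2 stands above the other STH libraries in FBXO32 and FBXO30 and below them in TRIM55.

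Among the RING finger genes, TRIM63 had TMM-normalized counts of 3392, 3506 and 2696 in the QHMM animals and of 16746, 60979 and 32657 in the STH animals, here and below in the order of replicates 1, 2 and 3. Even the lowest STH library stood 4.78-fold above the highest QHMM library. TRIM63, which tags thick filament proteins for degradation, rose from 3198 ± 438 (mean ± SD, n = 3) to 36794 ± 22404 (n = 3), by 3.52 on the log2 scale (SE 0.44, FDR = 0.00489 by edgeR). This was the 16th largest increase among the tested genes. As a share of the library, TRIM63 took 215 to 265 of every 1000000 reads in QHMM and 1548 to 5197 in STH. Ranked by RPKM among all listed genes, it moved from places 446 to 545 in the QHMM libraries to places 27 to 97 in STH.

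TRIM54, a partner of TRIM63 that binds microtubules, stood at 1339, 1879 and 2113 normalized counts in QHMM and at 2361, 4363 and 6009.6 in STH. The groups did not overlap, but the lowest STH library was only 1.12-fold above the highest QHMM library. The difference, 1.26 in log2 (SE 0.34, FDR = 0.0726), did not pass the test. In the current RefSeq annotation (ARS-UI_Ramb_v3.0) TRIM54 overlaps DNAJC5G, which had 0 reads in all 6 libraries of the deposited table.

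TRIM55, the remaining MuRF gene, stood at 364, 310.2 and 439.6 normalized counts in QHMM and at 626, 186 and 624 in STH. The lowest value of all 6 libraries belonged to STH replicate 2, and the other STH libraries had the highest. The log2 fold change came to 0.37 (SE 0.39, FDR = 0.657). Without STH replicate 2 it was 0.73 (SE 0.24, FDR = 0.184). The 3 MuRF genes are paralogs, and how reads that fit more than one of them were assigned is known only in that the authors kept uniquely mapped reads.

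Among the F-box genes, FBXO32 had 530.3, 956 and 683 normalized counts in the QHMM animals, against 2062, 10122 and 1708 in the STH animals. STH replicate 2 held 4.91 times the count of the next STH library, and the lowest STH library was 1.79-fold above the highest QHMM library. FBXO32, whose complex tags the translation factor EIF3F and MYOD1, rose from 723 ± 216 (n = 3) to 4631 ± 4759 (n = 3), by 2.68 in log2 (SE 0.61, FDR = 0.0433). Leaving out STH replicate 2 lowered it to 1.37 (SE 0.28, FDR = 0.0458), which still passed. Leaving out any one QHMM library ended the call, with an FDR of 0.132 without replicate 1, 0.0924 without replicate 2 and 0.127 without replicate 3. FBXO32 was also not called with robust dispersions (FDR = 0.138), with TREAT (FDR = 0.102) or with limma-trend on RPKM (FDR of 0.0666 to 0.176).

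FBXO30, whose other name MUSA1 refers to muscle atrophy, stood at 114, 109 and 129 normalized counts in QHMM and at 187, 1339 and 204 in STH. The STH mean rested mostly on replicate 2, which held 6.57 times the count of the next STH library. The difference of 2.29 in log2 (SE 0.66, FDR = 0.0848) did not pass the test and dropped to 0.72 (SE 0.25, FDR = 0.227) without that library. In the QHMM libraries FBXO30 varied little, with a log2 SD of 0.13 that was larger than in only 11.9% of tested genes, whereas its log2 SD of 1.60 in STH was larger than in 99.0% of them.

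FBXO40, a muscle F-box protein known to tag the insulin receptor substrate IRS1, stood at 909.7, 1233 and 1623 normalized counts in QHMM and at 592, 897 and 460.4 in STH. It was the only one of the 7 genes with a lower STH mean and a change of more than 1.5-fold. The highest STH library and the lowest QHMM library differed little, and the difference of -0.95 in log2 (SE 0.30, FDR = 0.113) did not pass the test. HCLS1, a gene of blood cells, overlaps FBXO40 in the RefSeq annotation. It had 87 to 162 reads in QHMM and 61 to 87 in STH, and whether the authors counted reads by strand is not given in the sources used here.

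FBXO21, which is known as a FoxO-dependent ligase of atrophy in mice, stood at 234, 227 and 223 normalized counts in QHMM and at 211, 206 and 216 in STH. The SD between animals, 5.35 in QHMM and 5.00 in STH, was below the SD of 15.1 and 14.5 that counting alone gives at these means. Although the breeds did not overlap, the fitted difference was -0.11 in log2 (SE 0.21, FDR = 0.817), and limma-trend on log2(RPKM + 1) put it at 0.0039.

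**Figure D2:**
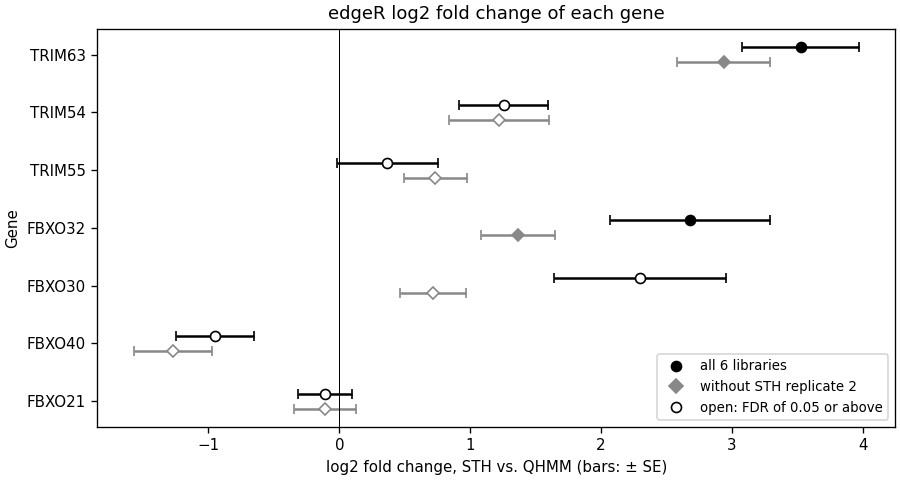
edgeR log2 fold change of STH vs. QHMM for each of the 7 genes with bars of ± SE, with all 6 libraries (black circles) and without STH replicate 2 (grey diamonds), and open symbols where the FDR was 0.05 or above. TRIM63 is at 3.52 and 2.94 in the 2 fits, whereas FBXO32 and FBXO30 drop from 2.68 and 2.29 to 1.37 and 0.72.

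STH replicate 2 thus stood apart in several of the genes, although not in all. It was at least 2-fold above both other STH libraries in FBXO32 and FBXO30, which held for 1.74% of all tested genes, and at most 0.5 of both in TRIM55, which held for 3.49%. The share of genes at least 2-fold above both others of the breed was 2.76% for STH replicate 1 and 1.69% for STH replicate 3. In the QHMM libraries it was 0.904% to 2.69%, so STH replicate 2 did not have the largest share. For TRIM63, STH replicate 2 was 1.87-fold above the next STH library, and for FBXO40 1.52-fold. TRIM54 had its highest value in STH replicate 3 instead. STH replicate 2 had the lowest total count of the 6 libraries, 10982191 reads on genes. The part of depth in these values was not tested.

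Per length, the genes spanned a wide range of levels. In RPKM, which divides by gene length and library total, the order of the mean log2 levels over the 6 libraries was TRIM63 (8.78), TRIM54 (7.45), FBXO32 (6.17), FBXO40 (4.79), TRIM55 (3.48), FBXO21 (3.36) and FBXO30 (2.44). Of the 6 neighbouring pairs in this order, 4 were ordered alike in 5 of 6 libraries, FBXO32 and FBXO40 in 4, and TRIM55 and FBXO21 in 3. The pairs and their direction were set by the order of these same values. An exact sign-flip permutation test over the 6 libraries (two-sided) gave raw p of 0.0625 to 0.8125 and Benjamini-Hochberg adjusted p of 0.1875 to 0.8125. The smallest raw p it can give, 0.03125, adjusts to 0.1875 for a single pair, and the spread it uses includes the breed difference, so a p above 0.05 here does not show that neighbours were level. TRIM55 and FBXO21 were the closest pair, with a mean log2 difference of 0.12 (SD 0.66) and TRIM55 higher in 3 of 6 libraries. TRIM63 exceeded TRIM54 in 5 of 6 libraries, by 1.33 (SD 1.30) on the log2 RPKM scale.

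The order within a breed changed for FBXO32 and FBXO40 and for TRIM55 and FBXO21. In QHMM, FBXO32 had 25.3, 38.5 and 33.2 RPKM in replicates 1, 2 and 3, close to FBXO40 with 29.2, 33.3 and 53.1. In STH, FBXO32 had 117, 528 and 68.9 RPKM, and FBXO40 had 22.5, 31.4 and 12.5. The ratio of FBXO32 to FBXO40 was thus 0.627 to 1.16 in QHMM and 5.19 to 16.8 in STH, without overlap.

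TRIM63 and TRIM54 were nearly level in QHMM, where their RPKM ratio was 1.66, 1.22 and 0.836 in replicates 1, 2 and 3. In STH the ratio was 4.65, 9.15 and 3.56. TRIM63 accounted for 31.9% to 46.9% of the summed RPKM of the 7 genes in QHMM and for 70.4% to 75.8% in STH. The sum itself was 319 to 379 RPKM in QHMM and 1239 to 3864 in STH.

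The ratio of TRIM63 to FBXO32 overlapped between the breeds, with 3.38 to 5.90 in QHMM and 5.55 to 17.6 in STH, and so did that of FBXO32 to FBXO30, with 8.41 to 15.9 and 13.7 to 19.96. The log2 ratio of FBXO32 to FBXO30 had an SD of 0.47 over the 6 libraries, the smallest of the 7 ratios formed. That of TRIM63 to TRIM55 had the largest SD, 2.12, with ratios of 9.36 to 17.2 in QHMM and 40.8 to 501 in STH. These ratios share the libraries of the breed comparison and carry no test of their own.

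**Figure D3:**
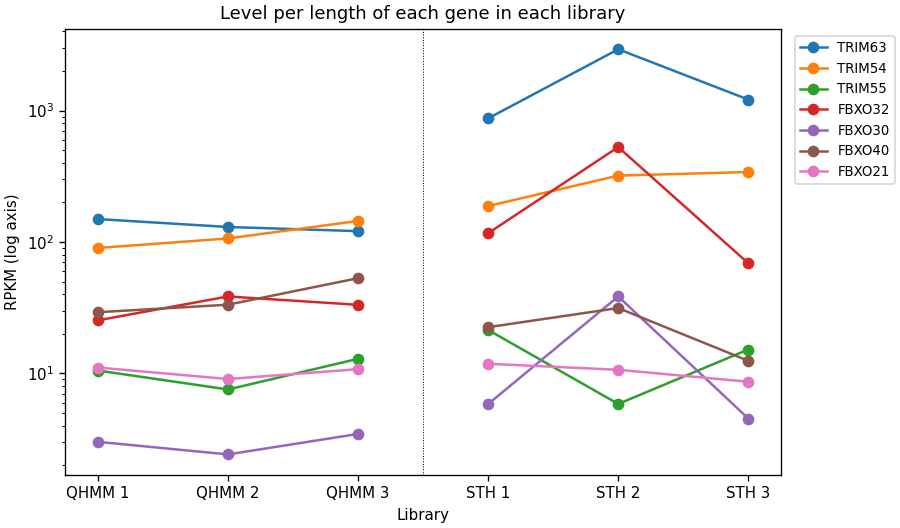
RPKM (log axis) of the 7 genes in each of the 6 libraries on the horizontal axis, with lines that only join the points of a gene within a breed. TRIM63 is the highest gene in 5 of 6 libraries, and FBXO32 separates from FBXO40 in the STH libraries only.

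To place the genes among the others, the tested genes whose mean-centred log2 CPM (counts per 1000000 reads) differed least from each member over the 6 libraries were listed, with the root-mean-square difference as the measure. All points share the same libraries and depths, and the measure carries no test. The gene nearest to TRIM63 was FOXO1, a FoxO transcription factor, at a difference of 0.30 on the log2 scale. It stood at 264, 215 and 135.0 normalized counts in QHMM and at 962, 2385 and 1846 in STH. As in TRIM63, replicate 2 was the highest and replicate 1 the lowest of the STH libraries, which choosing the gene by its likeness to TRIM63 favours.

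The next were LOC101120716 (0.31) and LOC101120623 (0.32), which the deposited annotation matches by sequence to NPC1, a cholesterol transporter of the lysosome. FBXO32 was followed most closely by PM20D2 (0.28), by SLC7A6 (0.38), an amino acid transporter of the cell membrane, and by SHISA5 (0.42). FBXO30 was the 4th nearest gene to FBXO32 (0.43), and FBXO32 the 3rd nearest to FBXO30. Nearest to FBXO30 was SLC3A2 (0.37), the heavy chain that pairs with SLC7A6. SLC3A2 stood at 539, 622 and 497 normalized counts in QHMM and at 701.5, 3934 and 1265 in STH. Its highest STH value was in replicate 2, which choosing the gene by its likeness to FBXO30 favours.

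The other members lay close to different genes. MAP1LC3A, a protein of the autophagosome membrane, was nearest to TRIM54 (0.16), and the kinesin gene KIFC2 to TRIM55 (0.11), though KIFC2 had only 6.41 to 28.0 normalized counts. LOC101102345 was nearest to FBXO40 (0.14) and RAB34, a small GTPase, to FBXO21 (0.04). TRIM63 and FBXO32 differed by 0.79, so that FBXO32 was the 43rd nearest gene to TRIM63.

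**Figure D4:**
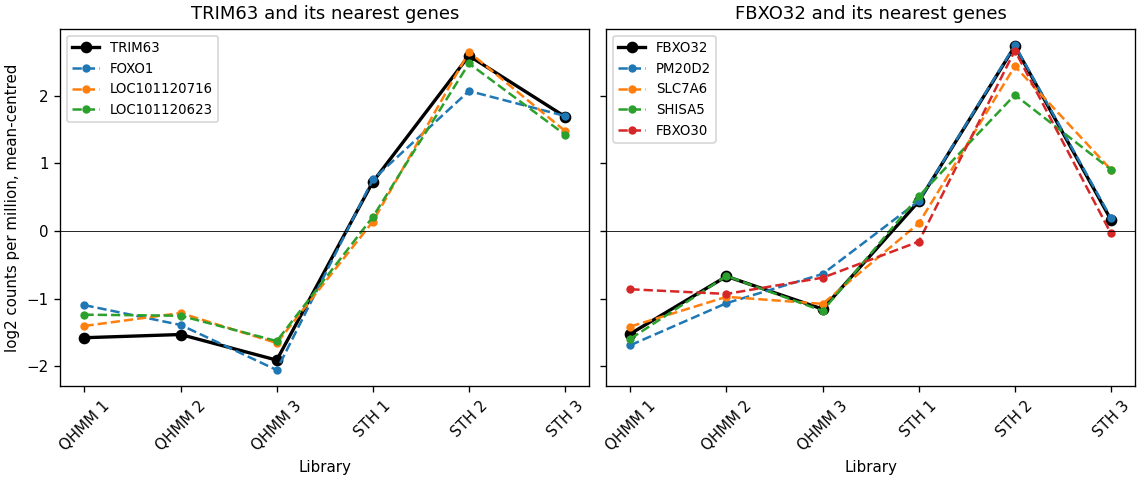
Mean-centred log2 CPM in the 6 libraries for TRIM63 with its 3 nearest genes (left) and for FBXO32 with its 3 nearest genes and FBXO30 (right), with lines that only join the points of a gene. All the genes shown are below 0 in QHMM, and STH replicate 2 is the highest library of each, a likeness that their choice favours.

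The partners of these ligases in the ubiquitin pathway were taken from lists of known components and are given beside the 7 genes. These lists were chosen with earlier results of these data known, so their counts are a description. Of the SCF core, 0 of 7 tested genes were called, and the median log2 fold change was -0.20. SKP1, the adaptor that F-box proteins bind, had 461 ± 153.5 normalized counts in QHMM and 401 ± 101 in STH (n = 3 each), with -0.20 (SE 0.28, FDR = 0.745). CUL1, the scaffold, stood at 626, 693 and 747 in QHMM and at 735, 1504 and 929.7 in STH, the highest in replicate 2 (log2 fold change 0.62, SE 0.27, FDR = 0.249).

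For the E2 enzymes, which hand ubiquitin to the ligases, 0 of 9 tested genes were called and the values ran from -0.71 to 0.72. UBE2D1, an E2 that can work with RING ligases, had the highest of them (0.72, SE 0.32, FDR = 0.249). In the 12 other tested ligases linked to muscle wasting, 0 were called, with a median of -0.07. The value was 0.84 (SE 0.28, FDR = 0.129) for CBLB, which tags IRS1, and -0.93 (SE 0.32, FDR = 0.144) for PARK2 (parkin), which marks damaged mitochondria. The 0 calls of these 3 lists were also 0 with DESeq2 and with limma-trend. An unadjusted p below 0.05 in edgeR was found for 1 of the 7, 3 of the 9 and 2 of the 12 genes. Over all tested genes, edgeR called 3.45%, and 19.2% had an unadjusted p below 0.05. At such a share of calls, lists this short can hold 0 calls.

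Upstream of the ligases, 14 genes of the FoxO and insulin-IGF input were tested. FOXO1, FOXO3 and PIK3R1 were called up and FOXO6 was called down, against 1.62% up and 1.83% down of all tested genes. FOXO1, which activates both TRIM63 and FBXO32 in other systems, rose from 205 ± 65.3 normalized counts (n = 3) to 1731 ± 718 (n = 3), by 3.08 in log2 (SE 0.37, FDR = 0.0045). FOXO3 rose by 2.18 (SE 0.34, FDR = 0.0114) and PIK3R1, the regulatory subunit of PI3 kinase, by 1.58 (SE 0.31, FDR = 0.0257). PIK3R1 lost its call without STH replicate 2 (FDR = 0.0674).

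FOXO4 had 931 ± 139 normalized counts in QHMM and 905 ± 179 in STH, with -0.04 (FDR = 0.946). FOXO6 fell from 65.7 ± 32.1 to 9.35 ± 2.65 (log2 fold change -2.79, FDR = 0.0141). IRS1, the substrate of FBXO40, had 791, 981 and 900.5 in QHMM and 597, 259.6 and 389 in STH. The groups did not overlap, but the difference of -1.10 in log2 (SE 0.29, FDR = 0.0667) did not pass the test. The median of the 14 genes was 0.04.

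The glucocorticoid list had 4 of 9 tested genes called up and 0 down, with a median of 1.33. Of all tested genes, 1.62% were called up and 1.83% down. The receptor itself, NR3C1, had 595 ± 85.0 normalized counts in QHMM and 505 ± 147 in STH, with -0.23 (FDR = 0.666). FKBP5, a chaperone of that receptor, had 116, 460.0 and 254 in QHMM and 3836, 7921 and 6331 in STH, a rise of 4.45 in log2 (SE 0.50, FDR = 0.00346). KLF15, a transcription factor known to act on TRIM63 and FBXO32, rose from 45.9 ± 7.96 to 126 ± 6.12, by 1.46 (SE 0.26, FDR = 0.0182). PDK4, which restrains pyruvate oxidation, rose by 5.16 (SE 0.86, FDR = 0.0137), and ZBTB16, a zinc finger factor, by 1.86 (SE 0.32, FDR = 0.0154). HSD11B1, the enzyme that makes the active steroid, had -0.88 (SE 0.39, FDR = 0.247). The listed targets TSC22D3 (0.56, SE 0.26, FDR = 0.282) and DDIT4 (1.02, SE 0.66, FDR = 0.442) were also not called.

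Of 10 other tested genes that FoxO factors are known to raise in atrophy, 4 were called up and 0 down. The share over all tested genes was 1.62% up and 1.83% down. The median of the 10 was 1.25, with values from 0.24 to 2.28. BNIP3 and GABARAPL1, genes of mitophagy and autophagy, rose by 1.44 (SE 0.28, FDR = 0.0248) and 1.49 (SE 0.28, FDR = 0.0225), and EIF4EBP1, a brake on translation, by 1.30 (SE 0.27, FDR = 0.0306). CDKN1A, a cell cycle inhibitor, rose by 2.28 (SE 0.41, FDR = 0.0193). Without STH replicate 2, CDKN1A was the 1 gene of the 10 still called.

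PSMD11, a proteasome lid subunit, stood at 678, 936 and 689 normalized counts in QHMM and at 1042, 2149 and 1242 in STH (log2 fold change 0.94, SE 0.29, FDR = 0.110). STH replicate 2 was the highest library here as well.

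Among the transcripts of 13 tested substrates of TRIM63, FBXO32 or FBXO40, 0 were called up and 2 down, against 1.62% and 1.83% of all tested genes. The ligases act on the proteins, and neither protein levels nor degradation were measured here. MYOD1, the myogenic factor that FBXO32 tags, had 174, 322 and 204 normalized counts in QHMM and 71.0, 9.62 and 31.4 in STH (log2 fold change -2.61, SE 0.53, FDR = 0.0292). MYL2, the slow myosin regulatory light chain, was the other (-1.44, SE 0.31, FDR = 0.0351) and is also among the slow-fibre markers below. EIF3F had 2257 ± 85.8 in QHMM and 2921 ± 335 in STH, with 0.37 (FDR = 0.380). MYBPC1 (-0.20) and TTN (0.12), parts of the thick filament and the elastic filament, were not called. Of the myosin heavy chains, the substrate list holds only MYH4 and leaves out those listed as OMYHCS, OMYHC2A and OMYHC2X. OMYHCS was called down (-1.34, SE 0.26, FDR = 0.0251 by edgeR), but not without STH replicate 2 (FDR = 0.111). OMYHC2A (-0.82, FDR = 0.1997) and OMYHC2X (-0.22, FDR = 0.730) were not called.

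**Figure D5:**
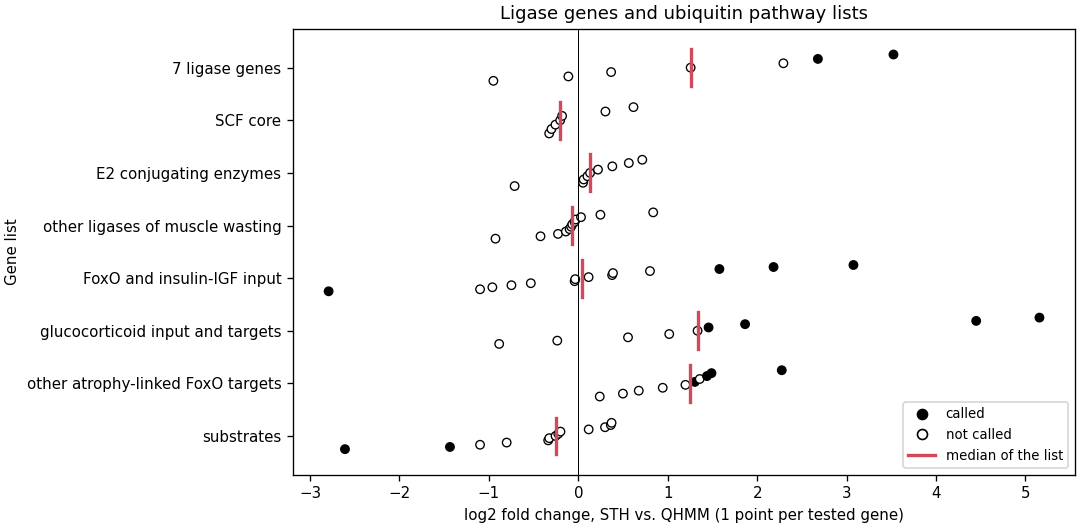
edgeR log2 fold change of STH vs. QHMM for the 7 ligase genes and for each tested gene of 7 lists around them, with filled points for called genes and a red line at the median of each list. The medians are 1.33 and 1.25 for the glucocorticoid list and the other FoxO targets, and lie between -0.25 and 0.13 for the other 5 lists.

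Slow-fibre markers and part of the fat markers also differed between the breeds. Of all tested genes, 11.7% were lower in STH without overlap, and 1.83% were called down. All 6 tested slow-fibre markers were lower in every STH library than in any QHMM library, 3 of them called (1 without STH replicate 2), and their summed RPKM was 16129 to 23320 in QHMM and 7141 to 10909 in STH. Of the fast-fibre markers 0 of 5 tested were called by edgeR (1 by DESeq2, 0 by limma-trend, 1 with an unadjusted p below 0.05), with sums of 49742 to 70570.1 and 45350.5 to 61114, and TNNT3 is listed at 0 in all libraries. The fast list and its sums leave out the myosins listed as OMYHC2X and OMYHC2A. OMYHC2X overlapped between the breeds (log2 fold change -0.22, FDR = 0.730 by edgeR). OMYHC2A was lower in every STH library (-0.82, SE 0.32) but was not called (FDR = 0.1997). Of 6 adipocyte markers 4 were called down (1 without STH replicate 2), but the sums overlapped, with 60.3 to 291 in QHMM and 42.6 to 129.7 in STH. Markers of endothelium (3 tested), fibroblasts (4), leukocytes (4) and smooth muscle (3) had 0 calls by edgeR, with an unadjusted p below 0.05 or a DESeq2 call for 1 fibroblast gene and 0 others, and 0 calls by limma-trend. Of the satellite cell markers, CDH15 was called up (FDR = 0.0448, 0.134 without STH replicate 2) and PAX7 and MYF5 were not, and of the cardiac markers NPPA had 0 reads and MYH6 was called down. The part of fibre type or of fat in the values of the 7 genes was not tested.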

How the data were processed

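Reads were mapped by the authors to the sheep genome (Oar 3.1), and unique mapped reads were kept. The values deposited are raw counts of reads per gene and RPKM, in which the authors scaled the same counts to gene length and library total. Which aligner, counter and annotation release were used is not given in the sources used here. The members and gene lists were chosen with earlier results of these data known.

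Counts were tested in R 4.3.3 with edgeR 4.0.16 (TMM, filterByExpr, glmQLFit and glmQLFTest, no term but breed, 3 libraries per breed). A gene was called at an FDR below 0.05, Benjamini-Hochberg adjusted across 12506 genes, with an absolute log2 fold change above 0.585, the study's thresholds. EBSeq, the study's program, was not installed. The SE is the log2 fold change divided by the root of the F statistic. Normalized counts are scaled to the mean effective library size, and means ± SD are over the 3 libraries of a breed. The p-values rest on the spread between these animals, with the spread of each gene moderated by that of other genes. They therefore do not measure a gene's own spread alone, as FBXO21 shows. An exact permutation test of 3 against 3 cannot give a p below 0.10, so single genes were judged from the fit across all genes.

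Alternatives with all libraries numbered 13, and 6 fits left out 1 library each. They used DESeq2 1.42.0, limma 3.58.1 (limma-trend on log2(RPKM + 1) or log2(RPKM + 0.1), where fold changes of low genes are understated), upper-quartile normalization, other filters and thresholds, TREAT, robust dispersions and the replicate number as a block. The limma-trend fits took RPKM as deposited, scaled to the library total without TMM factors. Genes named are the 7 members, called genes of the lists with up to 4 others per list, and the nearest 3 genes (TRIM63, FBXO32) or 1 gene (other members). Log2 CPM used a prior count of 2. RefSeq's table (ARS-UI_Ramb_v3.0) gave only names of overlapping and neighbouring genes for the 7 members. No member sequence was used here.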

Additional observations from a re-analysis of the deposited data

How the results depend on the processing

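TRIM63 was called in all 13 alternatives and all 6 fits that left out 1 library, with log2 fold changes of 2.94 to 3.86. FBXO32 was called in 7 of 13 and 3 of 6. Among the 13, the FDR of 0.01 and the setting without a minimum fold change only change a threshold of the edgeR fit. Dropping the minimum fold change cannot end a call, and the 432 calls of that fit stayed the same. TRIM54 was called in 5 of 13 and without STH replicate 1, FBXO30 without the filter and without STH replicate 1, and FBXO40 by DESeq2. TRIM55 and FBXO21 were called in none, and only FBXO21 changed sign, to 0.0039 with limma-trend on log2(RPKM + 1), filtered or not, and 0.0037 on log2(RPKM + 0.1). The number of the 7 genes called went from 2 to 4 with DESeq2 and without a filter, and to 1 with robust dispersions, TREAT, an FDR of 0.01 and unfiltered limma-trend. With 1 library left out it was 1 to 4.

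Over all genes, 432 calls of 12506 tested genes became 973 of 12506 with DESeq2 and 806 of 17668 without a filter. TREAT gave 105 calls, an FDR of 0.01 gave 41 and unfiltered limma-trend gave 78 of 17644. With 1 library left out, 131 to 535 genes were called. The called genes were 47.0% up in edgeR and 61.3%, 61.9% and 69.2% in the limma-trend fits. In those fits, which use no TMM factors, the median log2 fold change of all genes was 0.12, 0.14 and 0.04 in the same order, against 0.02 in edgeR. The fit with the highest share up thus had the smallest median of them. With DESeq2, 7 of 14 genes were called in the FoxO and insulin-IGF list and 7 of 10 among the other FoxO targets, against 4 each in edgeR. Over all 12506 tested genes, DESeq2 called 973 and edgeR 432. The cause was not tested.

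Deviations of same-numbered animals from their breed means correlated across genes at r of 0.226, -0.0380 and -0.130 for numbers 1, 2 and 3. Differently numbered animals gave -0.263 to 0.287. These values cannot show whether same-numbered libraries share a batch, and the labels give only the number. With the replicate block, 457 genes were called, and 3 of the 7, since TRIM54 joined TRIM63 and FBXO32 (FDR = 0.0437).

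Without STH replicate 1 or STH replicate 3, 5 of the 7 genes kept their place in the order of levels. Differences between genes within a library are the same on TMM-normalized counts per kilobase as on RPKM. With 3 animals per breed, 1 library can set much of a mean, as in FBXO32 and FBXO30.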

Other observations

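The genes next to the members on the chromosome, by the RefSeq annotation (ARS-UI_Ramb_v3.0), were chosen by position and after the values of the members were seen. SLC30A2, a zinc transporter gene on one side of TRIM63, had 0 reads in each QHMM library and 9, 46 and 2 in STH replicates 1, 2 and 3, and did not pass the filter for low counts. Without that filter it was called (FDR = 0.0102). PDIK1L, on the other side, had a log2 fold change of -0.22 (FDR = 0.815 by edgeR). KLHL38, beside FBXO32, had 0.19 (FDR = 0.782). EPM2A and SHPRH, on either side of FBXO30, had -0.45 (FDR = 0.562) and 0.28 (FDR = 0.659). GOLGB1, beside FBXO40, had 0.84 (FDR = 0.0727), and TESC, beside FBXO21, had 0.50 (FDR = 0.607). Of the 6 tested neighbours, which leave out HCLS1 because it overlaps FBXO40 (unadjusted p = 0.0339 by edgeR), 0 were called by edgeR. GOLGB1 was the 1 of the 6 with an unadjusted p below 0.05 and the 1 called by DESeq2 (FDR = 0.0405). The remaining ones did not pass the filter for low counts or are not listed under that symbol.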
